A study of Mus musculus with 16 samples.

Results

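The replication-dependent histone genes were taken as all protein-coding mouse genes of the GENCODE M21 annotation (mm10) whose symbol begins with Hist1h, Hist2h, Hist3h or Hist4h. They numbered 67 of 21851 protein-coding genes. The Hist1 cluster on chromosome 13 held 54 of them, the Hist2 cluster on chromosome 3 held 10, the Hist3 cluster on chromosome 11 held 2, and Hist4h4 stood alone on chromosome 6. By product, 6 genes encoded linker histone H1, 18 encoded H2A, 18 encoded H2B, 12 encoded H3 and 13 encoded H4. H3K27ac peaks within 5 kb of a transcription start site of these genes were compared across 4 conditions of primary bone marrow-derived macrophages (BMDMs).

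The BMDMs were grown from bone marrow of C57Bl6 mice aged 8 to 12 weeks, in medium with LCCM. Untreated cells formed the Control group. The IFNγ group received interferon gamma at 100 ng/mL for 1 h, the PJ34 group received the PARP inhibitor PJ34 at 20 µM, and the IFNγ+PJ34 group received PJ34 starting 1 h before IFNγ at the same doses. Each condition had 2 ChIP replicates that the authors merged into 1 peak list, so no value below carries a replicate error and no difference between lists was tested. The intervals given are 95% intervals over genes. They cover counting error only and are too narrow where genes share a peak. In a bulk population, fewer cells with the mark and less of the mark per cell cannot be told apart.

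Replication-dependent histone genes supply the histones that package newly copied DNA, and they are transcribed mainly while a cell copies its genome. They are short, mostly without introns, and packed in clusters, with many H2A and H2B genes arranged head to head around a shared promoter. NPAT drives their transcription in a nuclear structure called the histone locus body. Their mRNAs end in a conserved stem-loop bound by SLBP in place of a poly(A) tail. H3K27ac is an acetylation of histone H3 found at active promoters and enhancers.

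The stem-loop is shown because it marks these genes independently of any peak. It was searched for as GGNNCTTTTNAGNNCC on the sense strand within 150 bases after the stop codon, in the RefSeq sequence of GRCm38.p6, and was found in 63 of 67 genes (94%), between 22 and 59 bases from the stop codon. Outside the histone genes of the rule, 3 of 21581 protein-coding genes with a stop codon (0.0139%) held it, namely H2afx, H2bfm and Lrrc75b. Hist1h2an, Hist1h3g, Hist1h4a and Hist2h2be had no match in this window. The forms below, written 5′ to 3′ as DNA with the letters fixed by the search in capitals, were carried by 41, 9 and 8 genes in that order.
Form with ct and ag stem: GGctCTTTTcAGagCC
Form with an a in the loop: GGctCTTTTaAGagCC
Form with cc and gg stem: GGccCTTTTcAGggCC

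RefSeq promoters (GRCm38.p6, 250 bases before to 50 after the RefSeq start) were matched for 62 of the 67 genes. The CCAAT box (CCAAT, either strand) was present in 53 of 62 promoters (85.5%), against 37.4% of the 32851 promoters in the table. The letters of the TATA box (TATAAA, either strand, anywhere in the window) were present in 35 (56.5%, against 13.6%). Relative to the RefSeq start, with upstream negative, sense matches began at -33 to -26 in H1 promoters but at -250 to 41 in H4 promoters. The count is thus not one of TATA boxes at their usual place. The octamer ATTTGCAT, a binding site of OCT1, was present in 14 (22.6%, against 1.74%), of which 7 were among the 18 H2A promoters and 7 among the 16 H2B promoters. These are not 14 separate sites. In divergent pairs such as Hist1h2ah and Hist1h2bk, the same octamer was counted for both genes. Histone gene shares count genes, with a match in any promoter of the gene, while the shares they are set against count promoters. The H4 element GGTCCG was present in 13 (21%, against 8.25%), and 11 of those lay in the 12 H4 promoters. The 5 sequences below are the 170 bases before the RefSeq start of genes on which the peak comparisons turn, 5′ to 3′ on the gene's own strand. Capitals mark matches to the 4 motifs on either strand. Hist2h2ab had the highest-ranking Control peak, Hist1h2ah and Hist1h3b had the widest range of peak rank over the 4 lists, and Hist1h4c and Hist4h4 had their own highest rank in the IFNγ+PJ34 list. These ranks are those of the highest-scoring peak within 5 kb. For Hist1h2ah, Hist1h3b and Hist1h4c that peak was centred away from the promoter shown in at least 1 list. Within 1 kb of its start, Hist1h4c ranked highest in Control and not with both agents.
Hist2h2ab, chr3:96219715-96219884, plus strand: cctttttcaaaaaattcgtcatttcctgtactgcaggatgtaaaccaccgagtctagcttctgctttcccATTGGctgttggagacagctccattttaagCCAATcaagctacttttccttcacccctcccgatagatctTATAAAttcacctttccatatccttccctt
Hist1h2ah, chr13:22035644-22035813, minus strand: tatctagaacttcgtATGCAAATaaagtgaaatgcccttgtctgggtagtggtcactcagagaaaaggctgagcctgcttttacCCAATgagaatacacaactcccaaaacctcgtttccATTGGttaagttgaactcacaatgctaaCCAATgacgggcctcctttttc
Hist1h3b, chr13:23752175-23752344, plus strand: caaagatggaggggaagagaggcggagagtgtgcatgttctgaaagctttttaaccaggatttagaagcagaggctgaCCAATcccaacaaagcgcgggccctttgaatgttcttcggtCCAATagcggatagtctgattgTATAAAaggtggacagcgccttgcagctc
Hist1h4c, chr13:23698459-23698628, minus strand: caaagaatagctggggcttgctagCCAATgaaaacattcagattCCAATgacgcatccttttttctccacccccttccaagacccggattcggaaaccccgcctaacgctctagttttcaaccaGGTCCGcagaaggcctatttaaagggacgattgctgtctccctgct
Hist4h4, chr6:136804432-136804601, minus strand: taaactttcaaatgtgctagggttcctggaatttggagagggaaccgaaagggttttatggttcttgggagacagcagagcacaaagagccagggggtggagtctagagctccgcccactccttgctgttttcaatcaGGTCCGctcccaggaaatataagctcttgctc
In the Hist1h2ah sequence the first run of capitals is the octamer read on the opposite strand, on the side of the divergent H2B gene Hist1h2bk. In Hist1h4c and Hist4h4 the last run of capitals is the H4 element. A match describes the letters only and was not tested as a binding site.

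The 4 lists held 43533 peaks in Control, 40708 in IFNγ, 44090 in PJ34 and 42960 with both agents. Relative to Control, peaks covered 80.8%, 91% and 83.8% as many bases of the genome in the other 3 lists. The files hold no read counts, so depth is unknown. The labelled cell type was checked by its markers. All 10 macrophage marker genes had a peak within 5 kb in each list, while 2 of 6 T cell, 2 to 3 of 5 neutrophil precursor, 1 to 2 of 5 erythroid and 0 to 1 of 5 stromal markers did. Cd3e, Mpo and Gata1 had none in any list, while Cd3d, Lck, Prtn3, Camp and Klf1 had Control percentiles of 82.0, 63.3, 49.1, 52.1 and 67.3. Of the B cell genes, Cd79a had 91.1 in Control and no peak in PJ34 or IFNγ+PJ34, and Ms4a1 had a peak in each list, from 85.4 in IFNγ to 96.2 with both agents, and 89.3 in Control. The part of other cell types in the histone gene values was not tested. As a check of the treatment, 10 early IFNγ-response genes had a median score percentile of 82.8 in Control and 96.8 in IFNγ, and of 84.0 in PJ34 and 98.7 with both agents.

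In untreated macrophages almost every replication-dependent histone gene lay beside H3K27ac. In Control, 65 of 67 genes (97%, interval 89.6 to 99.6) had a peak within 5 kb, against 53.8% of all protein-coding genes. With IFNγ the count was 61 (91%, 81.5 to 96.6, against 52.4%). With PJ34 it was 65 (97%, against 53.6%). With IFNγ+PJ34 it was 59 (88.1%, 77.8 to 94.7, against 52.9%). Histone genes lie close together, so many shared a peak: the 65 genes with a Control peak drew on 26 distinct best peaks, and as many as 5 genes shared 1 peak.

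The genes with no peak in any list were Hist1h2aa and Hist1h2ba, a head-to-head H2A and H2B pair known as testis-specific variants. The testis-specific linker histone gene Hist1h1t was reached by a peak in each list, but never by one within 1 kb. Of the other genes, 7 differed in presence between lists. Hist1h4j, an H4 gene, had no peak in IFNγ and had percentiles of 58 in Control, 5.78 in PJ34 and 8.96 with both agents. Hist1h2bq, Hist1h2ao and Hist1h4m had a peak in Control and PJ34 only, and Hist1h4n, Hist1h2ap and Hist1h2br had one in every list but IFNγ+PJ34. These 6 genes form mirrored copies of an H2A, H2B and H4 trio, and each trio rested on 1 narrow peak, 326 and 272 bp wide in Control.

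Counted by comparison, 4 histone genes had a peak in Control and not in IFNγ, and 0 the reverse, where 2.26% and 0.879% of all protein-coding genes did. Between PJ34 and Control no histone gene gained or lost its peak, against 1.18% with a peak in PJ34 only and 1.39% in Control only. Between IFNγ+PJ34 and IFNγ, 1 gene had a peak in IFNγ+PJ34 only (against 1.91%) and 3 in IFNγ only (against 1.38%). Between IFNγ+PJ34 and PJ34, 0 had a peak in IFNγ+PJ34 only (against 1.55%) and 6 in PJ34 only (against 2.18%), which were the 2 copied trios.

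Coverage of the starts themselves differed more between lists than presence nearby. An annotated transcription start site of the gene lay inside a peak for 48 of 67 histone genes in Control (71.6%), against 45.8% of all protein-coding genes. It did so for 32 genes in IFNγ (47.8%, against 42.3%), 31 in PJ34 (46.3%, against 44.3%) and 16 with both agents (23.9%, against 42.1%). A gene counted as covered if any of its annotated starts was, which favours genes with several starts. At the 5′ end alone, the shares over all genes were 41.1%, 37.1%, 39.3% and 36.2%, while those of histone genes were the same as above. By either measure the share in histone genes was above that of all genes in Control and below it in IFNγ+PJ34. The shares that follow use any annotated start. Of the 48 histone genes with the start covered in Control, 32 (66.7%) were also covered in IFNγ, 30 (62.5%) in PJ34 and 16 (33.3%) with both agents. Of the 10014 genes of the annotation covered at the start in Control, the shares were 90.5%, 93.9% and 89.7%.

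Coverage in IFNγ+PJ34 was lower at the start than on either side of it. In IFNγ+PJ34, 47.8% of histone genes were inside a peak 500 bp before the 5′ end, 23.9% at the 5′ end and 56.7% 500 bp after it. In Control the same positions gave 77.6%, 71.6% and 79.1%. Over all protein-coding genes the IFNγ+PJ34 values were 26.4%, 36.2% and 40.1%, so that the value at the 5′ end was not below both flanks.

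**Figure D1:**
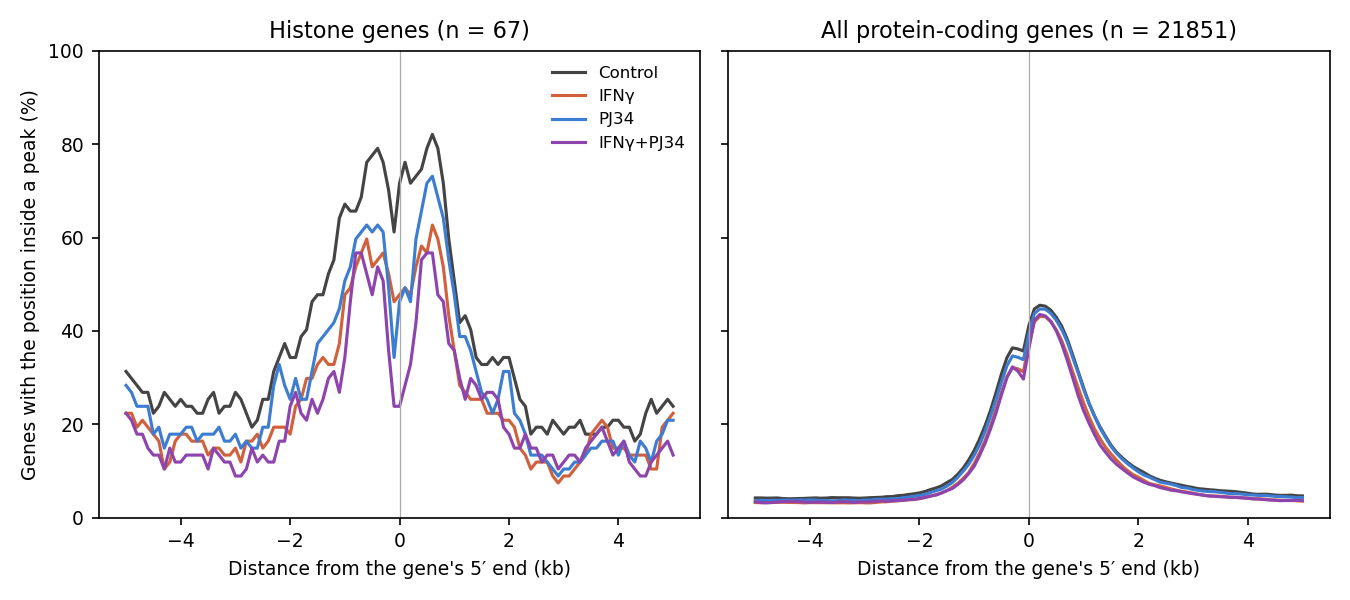
Share of genes whose position at a given distance (kb, x axis) from the 5′ end lay inside an H3K27ac peak (%, y axis), for the 67 histone genes (left) and all 21851 protein-coding genes (right), with 1 line per list. At the 5′ end the histone gene share was 71.6% in Control and 23.9% in IFNγ+PJ34, while the lines of all genes lie close together.

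The 16 histone genes covered at the start in IFNγ+PJ34 were also covered there in the other 3 lists. They included the Hist2 trio Hist2h2ab, Hist2h2ac and Hist2h2be, the H3 and H4 genes Hist2h3b and Hist2h4, the linker histone genes Hist1h1b and Hist1h1c, and Hist3h2a and Hist4h4. The start was outside peaks in every list for 18 genes. Among these were the 6 trio copies and the 3 testis variants, and also Hist1h3b, Hist1h1d, Hist1h4c and Hist1h4d, which had a peak nearby.

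Each gene was then described by its best peak, the highest-scoring peak within 5 kb. Its score percentile is its mid-rank among all peaks of its own list, from 0 for the weakest to 100, so that lists can be set side by side. The median percentile of the histone genes was 83.9 in Control (79.6 to 85.2), 73.3 in IFNγ (72.6 to 76.2), 77.1 in PJ34 (72 to 78.4) and 62.2 with both agents (58.4 to 63.6). The medians over all protein-coding genes with a peak were 85.7, 84.4, 86.5 and 82.2. Histone genes were thus near the typical promoter peak in Control and lowest in IFNγ+PJ34. The median fold enrichment over background, as deposited, was 25.5, 11.7, 11.7 and 9.04 for histone genes and 25.9, 19.2, 23.6 and 18.5 for all genes.

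**Figure D2:**
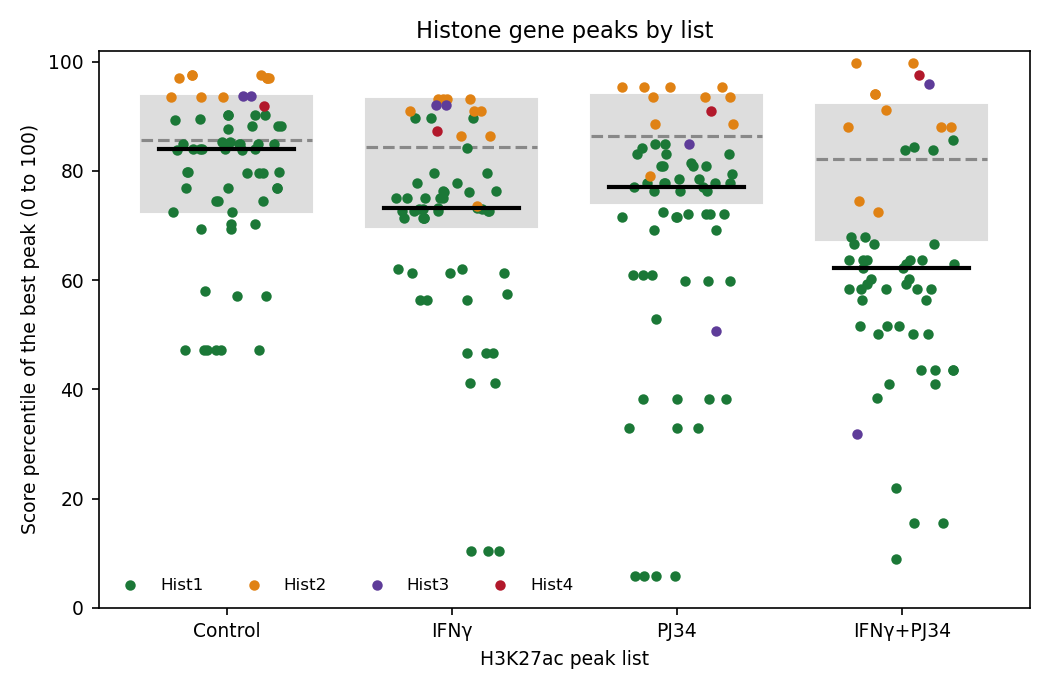
Score percentile (0 to 100, y axis) of the best peak within 5 kb of each histone gene in the 4 lists (x axis), each point 1 gene coloured by cluster, horizontal jitter only for visibility. Black lines are histone gene medians (83.9, 73.3, 77.1 and 62.2), and grey boxes and dashed lines are the quartiles and medians of all protein-coding genes with a peak.

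The best peaks were also narrower in the treated lists. Their median width was 2776 bp in Control (2402 to 3161), 1748 bp in IFNγ (1077 to 2453), 1488 bp in PJ34 (1097 to 1758) and 771 bp with both agents (621 to 1108). Over all genes it was 1689, 1470.5, 1594 and 1348.5 bp. Within 5 kb of a histone gene start the median number of bases inside peaks was 3880, 2674, 3119 and 2131. Fewer bases were covered than in Control around 62 of 67 genes in IFNγ (92.5%) and 65 of 67 in PJ34 (97%). The shares over all protein-coding genes with a Control peak were 76.2% and 58.3%.

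All 5 histone families had their highest median in Control and their lowest in IFNγ+PJ34. Linker H1 genes had median percentiles of 79.7 in Control, 74.8 in IFNγ, 74.6 in PJ34 and 61.2 with both agents. H2A genes had 84.8, 75.1, 77.9 and 63.6, and their partners the H2B genes had 83.9, 73.1, 72 and 58.4. H3 genes had 87.9, 75.7, 80.9 and 65.1. H4 genes had 79.8, 72.6, 72.4 and 58.4. PJ34 was above IFNγ in H2A and H3 genes and slightly below it in the other families. The family intervals overlapped widely, and neighbouring genes of different families shared peaks, so the families were not separated by these values. Taken gene by gene, H4 genes differed in sign in 1 comparison: over the 11 with a peak in both lists, IFNγ+PJ34 against PJ34 gave a median shift of 3.18, with 6 higher and 5 lower. These shifts depended on the 5 kb distance. Within 1 kb of the start, Hist1h4f had -12.7 in place of 6.68 and Hist1h4c 0.15 in place of 20.2, while Hist4h4 had 23.1 in place of 6.74. The H4 median within 1 kb was not computed.

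The highest Control ranks were in the Hist2 cluster. Hist2h2ab, Hist2h2ac (both H2A) and Hist2h2be (H2B) shared a peak of 4607 bp at percentile 97.5 in Control, which had percentiles of 91.0 in IFNγ, 93.4 in PJ34 and 88.0 with both agents at widths of 5018, 4586 and 5235 bp. This broad peak stayed wide in every list while its rank was lower in each treated list. Hist2h3c2, Hist2h2aa2, Hist2h2aa1 and Hist2h3c1 had a Control percentile of 97.1 from peaks of 2060 bp. The lowest Control ranks with a peak were those of the 6 trio copies at 47.2, followed by Hist1h1t and Hist1h4c at 57.0 and Hist1h4j at 58.

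**Figure D3:**
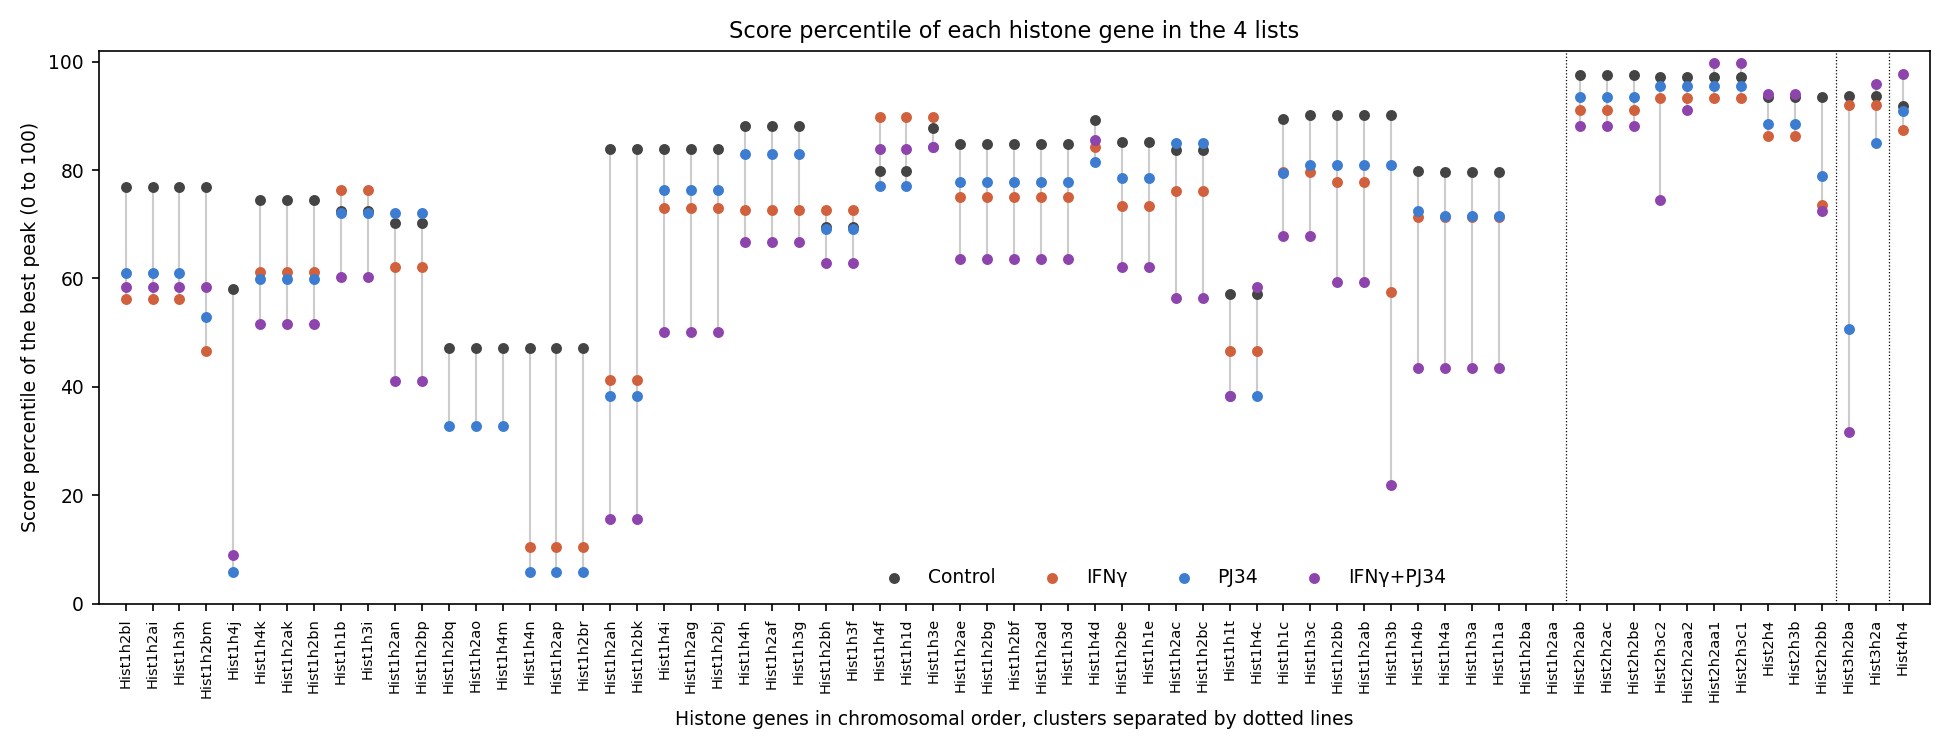
Score percentile (y axis) of the best peak within 5 kb for each of the 67 histone genes (x axis, chromosomal order within clusters), 1 colour per list, with a grey line from the lowest to the highest list. Runs of neighbours with equal values share a peak, and Hist1h2aa and Hist1h2ba have no point.

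The widest range over the 4 lists was that of Hist1h3b, which encodes H3, with percentiles of 90.2 in Control, 57.4 in IFNγ, 80.9 in PJ34 and 21.9 with both agents. Hist1h2ah and Hist1h2bk, a divergent H2A and H2B pair whose promoter is shown above, had 83.9, 41.2, 38.2 and 15.6. Hist3h2ba, an H2B gene, had 93.6, 92.1, 50.8 and 31.8. For these 4 genes the best peaks were not the same feature in each list. Relative to the start, with upstream positions negative, the Control summit lay at -5877 bp for Hist1h3b and at -6036 bp for Hist1h2ah, in broad peaks of neighbouring genes that reached into the window, and the peaks scored for Hist3h2ba began between 4588 and 4882 bp away.

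This was common: the best peak had its summit over 1 kb from the start for 34, 37, 33 and 33 genes in the 4 lists, and it was also the best peak within 1 kb for 41, 32, 39 and 36. Peaks within 1 kb of the start were therefore set beside the main values. The 1 kb setting was planned, and giving its values gene by gene was decided after seeing the data. At 1 kb Hist1h3b and its neighbour Hist1h2ab had percentiles of 79.8 in Control, 57.4 in IFNγ, 72.4 in PJ34 and 21.9 with both agents. Hist1h2ah and Hist1h2bk had 55.9 in Control, no peak in IFNγ, 38.2 in PJ34 and 15.6 with both agents. Hist3h2ba had none in any list. The order of the lists at Hist1h3b held at the shorter distance.

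Hist1h4b had a peak within 1 kb in 3 lists, at percentiles of 63.3 in Control, 46.7 in IFNγ and 32.8 in PJ34, and none with both agents. Hist1h4a and Hist1h3a, neighbours that shared a start-spanning peak of 3212 bp in Control, had 79.6, 71.4, 71.6 and 43.6 at both distances. Hist1h4d had 89.2, 24.3, 25.3 and 27 within 1 kb, from peaks of 5646 bp in Control and at most 595 bp in the other lists. Within 5 kb it had 89.2, 84.3, 81.4 and 85.6, from peaks with their summits over 3 kb downstream of the start. The Control value is the same 5646 bp peak at both distances, with its edge 3 bp from the start, so the values within 1 kb come from different features.

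Most histone gene peaks ranked lower in IFNγ than in Control. Of 61 genes with a peak in both lists, 54 were lower and 7 higher, where 7128 of 11260 protein-coding genes were lower. The median shift was -9.75 percentile points (-10.9 to -8.15), against -1.37 over all protein-coding genes. A shift of 10 points or more was downward for 27 genes, against 14.4% of all genes, and upward for 0, against 4.08%. The most negative shifts were those of Hist1h2ah and Hist1h2bk (-42.7) and of Hist1h4n, Hist1h2ap and Hist1h2br (-36.8).

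The 7 genes higher in IFNγ were Hist1h4f and Hist1h1d (79.8 in Control and 89.8 in IFNγ), Hist1h1b and Hist1h3i (72.5 and 76.4), Hist1h2bh and Hist1h3f (69.4 and 72.6) and Hist1h3e (87.7 and 89.8). Within 1 kb, Hist1h4f had 60.6 in Control and 38.4 in IFNγ, and Hist1h1b had 55.9 and 10.4. Of these 7 genes, Hist1h2bh, Hist1h3f and Hist1h3e were also higher in IFNγ at 1 kb.

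The PJ34 list gave a median shift of -7.64 points from Control (-9.35 to -6.80), while all protein-coding genes moved by 0.71. It was lower for 61 of 65 histone genes and higher for 4, where 4776 of 11450 protein-coding genes were lower. A fall of 10 points or more occurred in 21 genes, against 5.81% of all genes, and a rise of that size in 0, against 6.6%. Hist1h4j had the largest fall, from 58 to 5.78. The 4 higher genes were the H2A and H2B pairs Hist1h2ac and Hist1h2bc (83.8 in Control and 85.0 in PJ34) and Hist1h2an and Hist1h2bp (70.2 and 72).

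The IFNγ+PJ34 list gave a median shift of -10.4 points from IFNγ (-11.7 to -5.98), against -1.19 over all genes. Of 58 histone genes, 46 were lower and 12 higher, where 6603 of 11151 protein-coding genes were lower. Falls of 10 points or more numbered 29, against 15% of all genes, and rises 3, against 10.2%. The 3 rises were in Hist4h4, Hist1h2bm and Hist1h4c. The IFNγ+PJ34 peak of Hist1h2bm lay 3667 bp from its start, and within 1 kb this H2B gene had 60.6 in Control, 17 in IFNγ, 15.3 in PJ34 and no peak with both agents. The same list gave -11.8 points from PJ34 (-16.2 to -6.29), against -4.07 over all genes. Here 45 of 59 were lower and 14 higher, a share close to the 8156 of 11230 protein-coding genes that were lower. There were 32 falls of 10 points or more, against 26.4% of all genes. The 2 rises, against 6.4%, were in Hist1h4c and Hist3h2a. Each of the 4 lists enters 2 of these 4 comparisons, so the comparisons share samples.

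**Figure D4:**
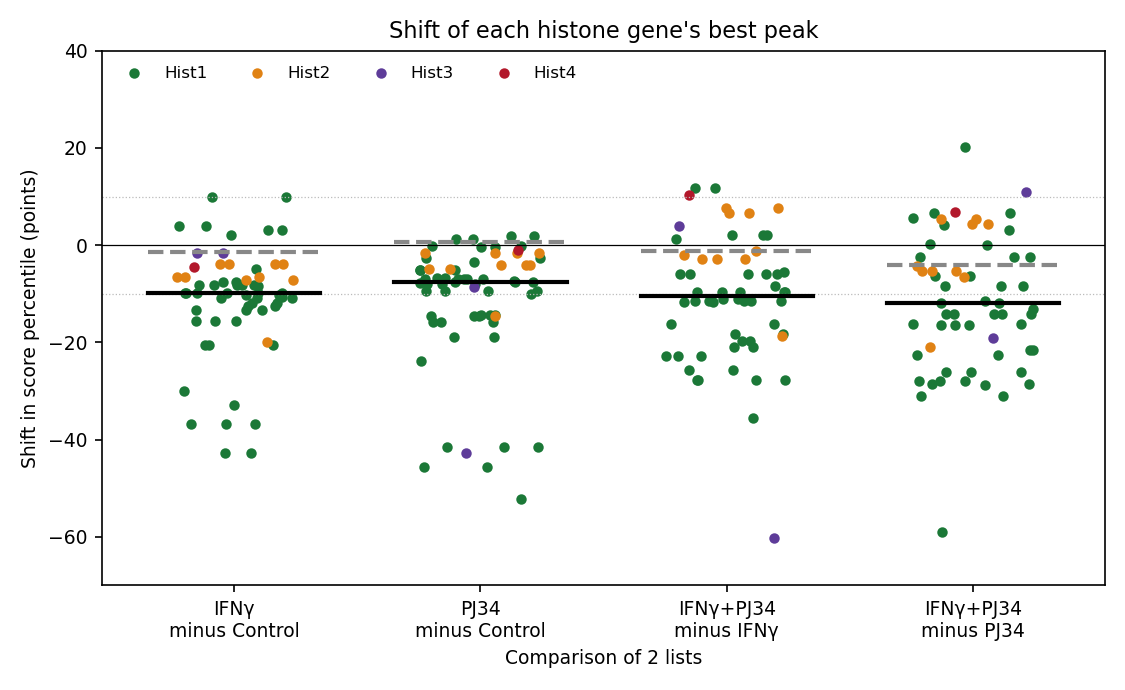
Shift in score percentile (points, y axis) of each histone gene's best peak in 4 comparisons of 2 lists (x axis), each point 1 gene coloured by cluster. Black lines are histone gene medians (-9.75, -7.64, -10.4 and -11.8), dashed grey lines the medians of all protein-coding genes, and dotted lines mark 10 points.

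Over the 58 histone genes with a peak in every list, Control was the highest list for 40 and the lowest for 0. IFNγ+PJ34 was the lowest for 42 and the highest for 7. Over the 11014 protein-coding genes with a peak in every list, Control was highest for 27.5% and lowest for 11.8%. For these genes IFNγ+PJ34 was lowest for 51.2% and highest for 16.8%. For genes that started at a similar rank, the 4193 genes whose Control percentile fell between the quartiles of the histone genes were described. This band of genes had median shifts of -1.66, 1.75, -2.06 and -5.68 in the 4 comparisons, in the order given above.

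Median shifts were more negative in the Hist1 cluster than in Hist2 in all 4 comparisons, at -10.5, -7.94, -11.5 and -14.2 against -6.49, -4.05, -1.57 and -4.85, a difference that was not tested. The 54 Hist1 genes had median percentiles of 79.8 in Control, 72.6 in IFNγ, 72 in PJ34 and 58.4 with both agents. Starts inside a peak numbered 39, 25, 23 and 9. Over the Hist1 stretches (members less than 100 kb apart joined, with 5 kb on either side), peaks covered 82.8 kb in Control, 51.6 kb in IFNγ, 60.2 kb in PJ34 and 51.1 kb with both agents. The covered bases per peak were fewer in each treated list. Control had 57 peaks with a mean of 1453 bp, IFNγ had 56 with 922 bp, PJ34 had 70 with 861 bp, and IFNγ+PJ34 had 71 with 719 bp.

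The Hist1 stretches differed in extent. On chr13:22030164-22048676, where Hist1h2ah, Hist1h2bk, Hist1h4i, Hist1h2ag and Hist1h2bj lie, the bases covered were 43.3%, 59.7% and 25.4% of the Control amount in IFNγ, PJ34 and IFNγ+PJ34. On chr13:21710763-21842530, from Hist1h2bl to Hist1h2br (18 genes), they were 57.6%, 68.8% and 43.6%. On chr13:23526050-23769406, from Hist1h4h to Hist1h1a (29 genes), they were 65.8%, 75.3% and 71.0%. That last stretch also holds Hfe, an iron-regulation gene outside the rule, and its highest-ranking IFNγ+PJ34 peak, at 95.5, was not the best peak of any histone gene.

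Of the 18 genes from Hist1h2bl to Hist1h2br, Hist1h2bl, Hist1h2ai and Hist1h3h shared percentiles of 76.8 in Control, 56.3 in IFNγ, 60.9 in PJ34 and 58.4 with both agents. Next to them, Hist1h2bm had 76.8, 46.7, 52.9 and 58.4. Hist1h4k, Hist1h2ak and Hist1h2bn shared 74.5, 61.3, 59.9 and 51.6. The first group was lowest in IFNγ and the second in IFNγ+PJ34. Hist1h2an and Hist1h2bp had 70.2, 62.1, 72 and 41.0. Hist1h1b, a linker histone gene, and Hist1h3i had 72.5, 76.4, 72 and 60.2.

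In the stretch from Hist1h4h to Hist1h1a, the widest Control peak was 6580 bp and spanned the starts of Hist1h2ae, Hist1h2bg, Hist1h2bf, Hist1h2ad and Hist1h3d. These 5 genes had percentiles of 84.8 in Control, 75.1 in IFNγ, 77.9 in PJ34 and 63.6 with both agents, with best peaks of 6580, 3942, 2938 and 484 bp. None of the 5 starts lay inside a peak in IFNγ+PJ34. Hist1h4h, Hist1h2af and Hist1h3g had 88.2, 72.6, 83.0 and 66.7. Hist1h2be and the linker histone gene Hist1h1e had 85.2, 73.3, 78.4 and 62.2. The linker histone gene Hist1h1c, with a peak of its own of 3073 bp in Control, had 89.5, 79.6, 79.4 and 67.8.

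Among the genes of that stretch given next, all but Hist1h2ac and Hist1h2bc were highest in Control. Hist1h3c had 90.2 in Control, 79.6 in IFNγ, 80.9 in PJ34 and 67.8 with both agents, and Hist1h2bb and Hist1h2ab had 90.2, 77.7, 80.9 and 59.4. Hist1h1a had 79.6, 71.4, 71.6 and 43.6. Hist1h2ac and Hist1h2bc, highest in PJ34, had 83.8, 76.2, 85.0 and 56.4. At Hist1h4i, Hist1h2ag and Hist1h2bj, in the stretch of 5 genes, the values were 83.9, 73.0, 76.3 and 50.2.

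Outside Hist1 the pattern was different in part. The 10 Hist2 genes had median percentiles of 97.1 in Control, 91.0 in IFNγ, 93.4 in PJ34 and 89.6 with both agents. All 10 were lower than Control with either agent alone. Of these 10, 4 were higher in IFNγ+PJ34 than in IFNγ, a share close to the 4548 of 11151 over all protein-coding genes. Within 1 kb, 3 of the 10 were higher in that comparison. Covered bases in the Hist2 stretch, which also holds Bola1, a gene outside the rule, were 23.6 kb in Control and 20.4 kb in IFNγ. They were 18.9 kb in PJ34 and 26.2 kb with both agents. Hist2h4 had 93.5, 86.3, 88.6 and 94.0, with a peak over its start in each list. Hist2h2bb had 93.5, 73.6, 79.0 and 72.5.

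Hist2h2aa1 and Hist2h3c1 had percentiles of 97.1 in Control, 93.2 in IFNγ, 95.5 in PJ34 and 99.8 with both agents. In IFNγ+PJ34 the best peak was 6171 bp wide with its summit 6148 bp downstream of the Hist2h2aa1 start. Within 1 kb of that start the values were 97.1, 93.2, 95.5 and 91.2. Within 1 kb of the Hist2h3c1 start they were 97.1, 68, 75.4 and 99.8, from peaks of 2060, 358, 377 and 6171 bp. The last is the same 6171 bp peak, so these values come from different features. The start of this H3 gene lay outside peaks in every list. Hist2h3c2 and Hist2h2aa2, the duplicate copies of this H3 and H2A pair, had 74.5 and 91.2 in IFNγ+PJ34. Within 1 kb Hist2h3c2 had 79.2, 66.4, 73.2 and 74.5, since its higher values at 5 kb in the first 3 lists came from a neighbour's peak. Hist2h2aa2 had 83.8, 66.4, 80.0 and 60.2 within 1 kb, so its 91.2 came from a peak further away.

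Hist4h4, an H4 gene, had percentiles of 91.9 in Control, 87.4 in IFNγ, 90.9 in PJ34 and 97.6 with both agents. In IFNγ and PJ34 the best peak within 5 kb lay over 4 kb upstream, so the values within 1 kb differed more, at 91.9, 78.8, 74.5 and 97.6. At the start itself this gene was therefore lower with each agent alone and highest with both. The neighbouring variant gene H2afj had the same 4 values as Hist4h4 at 5 kb. Hist3h2a, an H2A gene, had 93.6, 92.1, 85.0 and 95.9, and its stretch also holds Trim17.

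Genes related to the histone genes by function did not all move with them. Of 11 replication-independent histone genes, which are expressed outside S phase and are polyadenylated, 9 had a peak in Control. None of the 9 with a peak in both lists shifted by 10 points or more from Control in IFNγ or in PJ34, and their median shifts were -1.55 and 0.48. H2afj, among these 9, had the same values as Hist4h4, as given above, so the 2 sets of genes are not fully separate. Over all genes, 14.4% fell and 4.08% rose that far in IFNγ, and 5.81% fell and 6.6% rose in PJ34. In IFNγ+PJ34 against PJ34, 2 of 9 fell by 10 points or more (22.2%, against 26.4% of all genes) and 0 rose (against 6.4%). H3f3b, which encodes H3.3, had 99.3 in Control, 99.2 in IFNγ, 97.3 in PJ34 and 99.5 with both agents. H2afx, which carries the stem-loop as noted above, had 82.7, 81.2, 84.1 and 57.4.

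All 17 genes for histone gene transcription and 3′ end processing that matched the annotation had a peak in every list, with median percentiles of 89.5 in Control, 88.4 in IFNγ, 91.1 in PJ34 and 79.9 with both agents. Their median shifts were -0.38 with IFNγ and 3.88 with PJ34 against Control. In IFNγ+PJ34 against PJ34, 11 of 17 fell by 10 points or more (64.7%, against 26.4% of all genes), and 0 rose (against 6.4%). Npat had 70.9, 75.7, 79.6 and 63.6, and Slbp had 97.9, 95.5, 98.5 and 98.0. Lsm11, which encodes a subunit of the U7 particle that cuts histone pre-mRNA, had 72.5, 70.6, 78.4 and 43.6.

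The 22 S-phase genes, expressed like the histone genes during DNA replication, had median percentiles of 70.3 in Control, 64.1 in IFNγ, 69.1 in PJ34 and 67.3 with both agents. Against Control, 4 of 20 fell by 10 points or more in IFNγ (20%, against 14.4% of all genes) and 0 rose (against 4.08%). In PJ34, 3 of 22 fell (13.6%, against 5.81%) and 4 rose (18.2%, against 6.6%). Tyms, which makes thymidylate for DNA synthesis, had 60.6, 24.3, 42.5 and 15.6, while Mcm6, a helicase subunit, had 66.8, 48.7, 60.9 and 76.7. The macrophage markers, unrelated to replication, were lower than in Control for 10 of 10 in IFNγ and 10 of 10 in PJ34, with median shifts of -6.93 and -5.63, and 6 of 10 were higher in IFNγ+PJ34 than in IFNγ. Whether the shift of these markers has a part in the histone gene values was not tested.

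Histone genes repeat each other in sequence, and the authors kept uniquely mapped reads, so the share of sequence that occurs once in mm10 was measured. Within 1 kb of the 5′ end a median of 75.5% of 32-base words were unique, from 0 to 100% over the 67 genes. Within the coding sequence the median was 16.6%. Linker H1 genes were the most distinct, at 99% around the start and 83.8% in the coding sequence, and H3 coding sequences the least, at 9.15%. Words were more often unique inside peaks than outside them within 1 kb of the starts, at 77.4% and 61.4% in Control and 82.8% and 65.3% in IFNγ+PJ34.

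**Figure D5:**
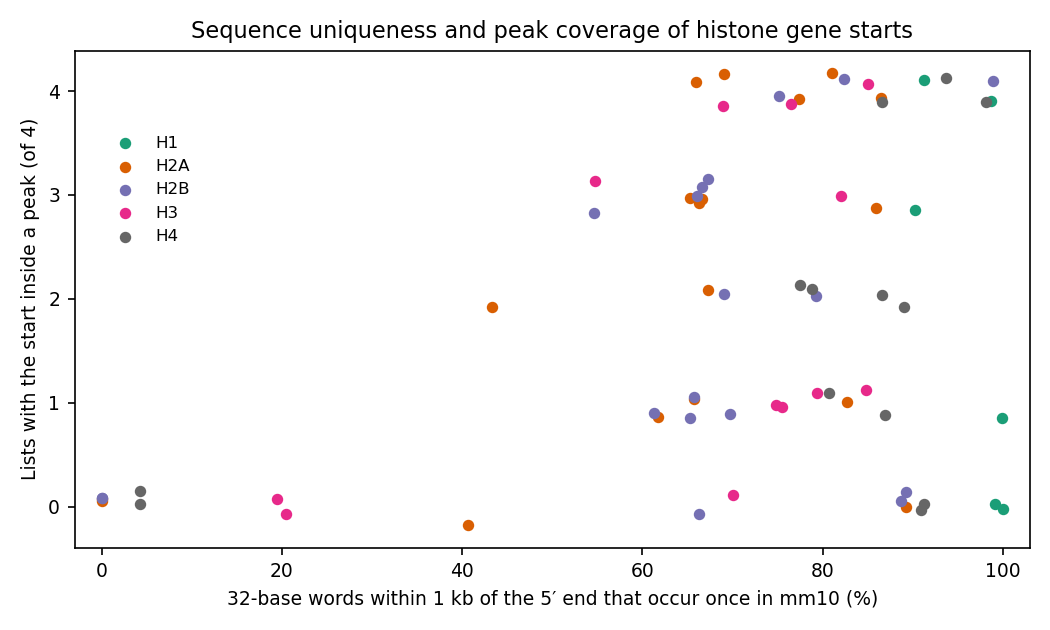
Number of lists, of 4, in which a histone gene's start lay inside a peak (y axis, jittered), against the percentage of 32-base words within 1 kb of its 5′ end that occur once in mm10 (x axis), each point 1 gene coloured by histone family. The 6 trio copies sit at 0 to 4.26% with 0 lists, and the genes covered in all 4 lists lie at 65.9% and above.

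Hist1h2bq, Hist1h2ao, Hist1h2ap and Hist1h2br had no unique words around the start, and Hist1h4m and Hist1h4n had 4.21% and 4.26%. These are the genes whose presence in the lists rested on a narrow peak. Hist2h3c1 and Hist2h3c2 had 19.4% and 20.4%. When the 10 genes under 50% were left out, a choice made after seeing the data, the start was inside a peak for 47, 32, 30 and 16 of 57 genes, and the median shifts were -9.75, -7.37, -11.1 and -13.0. The part of repeated sequence in the level of any single gene was not tested.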

How the data were processed

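H3K27ac ChIP-seq was made from BMDMs in 4 conditions, with 2 ChIP and 2 input samples each, grouped by the sample titles. The authors used Bowtie (mm10), discarded reads without a unique place, called relaxed peaks per replicate with MACS against input, and deposited the peaks found in both replicates as 1 list per condition. The deposited score (10 to 1000), fold enrichment (a ratio), and −log10 p-value and −log10 q-value are the authors' own peak caller values. No read depth is given. From these files, peaks were assigned to GENCODE M21 genes by any base within 5 kb of a start (mm10 is GRCm38, the build of the reference sequence). The score was turned into a percentile within its list, and a shift of 10 points was called. Python 3.11.15, numpy 2.4.6, pandas 2.3.3, scipy 1.17.1 and matplotlib 3.10.9 were used. Shares have exact Clopper-Pearson intervals and medians order-statistic intervals. With 1 list per condition no test was made. Peak assignment was tested on simulated data. Genes, gene lists and alternatives were chosen with earlier results of these data known. Any histone gene could be named, led by the 5 highest and lowest Control ranks, those that differed in presence and the 5 widest ranges, and other genes came from listed groups only. The count over a marker list is not reported here. Input samples were not analysed here beyond their part in peak calling.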

Additional observations from a re-analysis of the deposited data

Results flagged for a closer look

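Hist1h4c was singled out because the IFNγ effect on its score percentile went opposite ways without and with PJ34. The shift was -10.3 points in IFNγ against Control (46.7 and 57.0) and 20.2 points in IFNγ+PJ34 against PJ34 (58.4 and 38.2). The difference was not tested. In IFNγ+PJ34 the best peak within 5 kb had its summit at -4261 bp from the start (upstream is negative), whereas the Control summit lay 359 bp downstream. Among peaks within 1 kb of the start the values were 57.0 in Control, 46.7 in IFNγ, 38.2 in PJ34 and 38.4 with both agents, and the shift with both agents against PJ34 was 0.15 points.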

How the results depend on the processing

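No paired analysis was possible because the replicates of a condition were merged before deposit, and for that reason no replicate could be left out. Of 172 values recomputed under another setting, 156 stayed within 1.5 times (counts) or within the interval of the main value (medians). No direction was reversed: all 40 alternative median shifts were below 0. Counting each distinct peak once was applied to the median percentiles and widths but not to the shifts. Genes that share a peak therefore still weigh on all 40. The alternatives of equal-sized lists, −log10 q of at least 2, distances of 1 and 10 kb, summit position, 5′ end only, ranking by fold enrichment, distinct peaks, the higher-scoring 50% of each list and leaving out the germline variants were planned. Leaving out genes under 50% unique, and every alternative for starts inside a peak, were added after seeing the data. At 1 kb, median percentiles were 72 in IFNγ and 56.4 in IFNγ+PJ34, the IFNγ median width was 1061.5 bp, and the shift of IFNγ from Control was -12.2. At 10 kb, median percentiles were 77.7 in IFNγ, 80.9 in PJ34 and 66.7 with both agents, and shifts were -7.20 (IFNγ minus Control), -5.70 (IFNγ+PJ34 minus IFNγ) and -5.40 (IFNγ+PJ34 minus PJ34). Ranked by fold enrichment, the Control median was 85.5 and the shift of PJ34 from Control -10.1. Ranked among gene-linked best peaks alone, shifts from Control were -13.1 (IFNγ) and -16.1 (PJ34). With a −log10 q of at least 2 the IFNγ median was 72.1, and with lists trimmed to equal size the shift of IFNγ+PJ34 from IFNγ was -12.8. The cause of these changes was not tested. Peak score and width both depend on read depth, which the files do not give, so differences in depth or enrichment between lists cannot be told apart from differences in the mark.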

Other observations

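The median shifts of the histone genes were also below 0 in all 4 comparisons among peaks within 1 kb. At this distance 50 of 54 histone genes were lower in IFNγ than in Control, where 6736 of 10613 protein-coding genes were. Of the 54, 33 fell by 10 points or more, where 14.6% of all protein-coding genes did. In IFNγ+PJ34 against PJ34, 30 of 54 fell by that much, where 27% of all genes did, and 5 rose, where 5.8% of all genes did. In the Hist1 cluster the median shift in that comparison was -19.9 points over 42 genes, and in the Hist2 cluster it was -5.40 over 10 genes.

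In Control 75.6% of the coding bases of the 67 genes lay inside a peak, against 5.61% of the coding bases of all protein-coding genes, which are longer and extend further from the start. The share was 54.0% in IFNγ, 55.3% in PJ34 and 41.5% with both agents. Within Hist1 it went from 78.4% in Control to 37.4% in IFNγ+PJ34, and within Hist2 from 63.4% to 57.4%.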
